A study of Mus musculus with 5 samples.

Results

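The mouse genes whose symbols begin with Hist1h, Hist2h, Hist3h or Hist4h encode the H1 linker histone and the H2A, H2B, H3 and H4 core histones. They were chosen by symbol alone, and 67 of the 31053 genes in the matrices matched: 6 genes for H1, 18 for H2A, 18 for H2B, 12 for H3 and 13 for H4. All 67 were found in GENCODE M21 (GRCm38), 54 on chromosome 13, 10 on chromosome 3, 2 on chromosome 11 and 1 on chromosome 6.

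Core histones wrap DNA into nucleosomes, and H1 binds the DNA between them. Most genes of this family are transcribed while DNA is replicated, and their messages end in a short stem-loop in place of a poly(A) tail. Some members can also be read through past the stem-loop to a poly(A) signal, and such messages are made in resting and differentiated cells as well. Poly(A) capture therefore samples the family unevenly. A list of 11 members known for polyadenylated messages (Hist1h1c, Hist1h2ac, Hist1h2bc, Hist1h2be, Hist1h2bk, Hist1h4h, Hist1h4i, Hist2h2aa1, Hist2h2be, Hist3h2a and Hist3h2ba) was kept apart from the other 56 throughout, and is called the polyadenylated-type list below. The list was set by hand with earlier results of these data known, so its contrast with the other members is descriptive.

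The study set out to describe how T cells and heart cells change with age in C57BL/6 mice. It profiled one heart library from mice of 2 months and one from mice of 18 months, both read from the 3′ end of poly(A) RNA and labelled as non-cardiomyocytes. A pool of CD4+ and CD8+ T cells with high CD44 from the mediastinal lymph nodes that drain the heart was read from the 5′ end, with T cell receptors, from mice of 2, 6, 12 and 18 months. The labels name no treatment beyond ageing and no genetic change, do not say how many animals entered a library, and state that sorted cells were combined at different ratios. The lymph node pool carried 8 hashtags (antibody barcodes that mark the cells of one staining), and the sources used here do not give their ages. Those 8 subsets were therefore left unassigned. The heart matrices also held hashtag counts, with Hashtag09 and Hashtag10 in the 2-month library and Hashtag11 and Hashtag12 in the 18-month library. The sources used here do not say what a heart hashtag stands for, and these subsets served only to show spread among the tagged cells of a library. No clear hashtag was found in 7588 of the 10895 cells kept at 2 months and in 3222 of the 7807 kept at 18 months.

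After filtering, 10895 cells remained in the 2-month heart, 7807 in the 18-month heart and 10144 in the lymph node pool, with medians of 8033, 4368 and 2767 UMIs (counted RNA molecules) per cell. The heart libraries shared 29 cell barcodes, the 2-month heart and the lymph node shared 3, and the 18-month heart and the lymph node shared 0. Against their labels, the hearts held a cardiomyocyte class (706 and 146 cells), and the lymph node pool held B cell, dendritic and macrophage clusters. Of the hearts' kept cells, 1364 and 1327 stayed in clusters without a name, as did 1635 cells of the lymph node pool. In the hearts these included clusters led by Gzma and Ccl5, by Vwf and Npr3, and by Upk3b and Krt19, which are not described as classes. With 1 library per age there is no replicate check of age: values between ages are ratios of 2 libraries, with no test. Levels are CPM, the gene's UMIs scaled to the total UMIs of the same cells, and intervals are exact 95% intervals that cover counting error only. A member was called higher or lower when it had at least 20 UMIs over the cells compared, differed by at least 1.5-fold and had an interval that left out equality.

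The stem-loop is shown for 5 members because the annotated distance from it to the end of the message differs among them. The 16 bases of the stem-loop are in capitals, with up to 5 bases on each side, 5′ to 3′ along the message.
Hist1h2ap: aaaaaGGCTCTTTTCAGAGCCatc
Hist1h2ab: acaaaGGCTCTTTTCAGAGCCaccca
Hist1h1e: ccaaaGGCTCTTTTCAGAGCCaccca
Hist1h1c: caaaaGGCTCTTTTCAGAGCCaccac
Hist3h2a: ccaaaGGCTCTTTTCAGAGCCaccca
All 5 are transcript sequences of GENCODE M21. Hist1h2ap lies at chr13:21833026-21833507 on the minus strand, and its annotated message ends 3 bases past the stem-loop. Hist1h2ab ends 11 bases past it. The message of Hist1h1e (chr13:23620629-23622558, minus strand) runs on for 1153 bases, that of Hist1h1c (chr13:23738808-23740367, plus strand) for 840 and that of Hist3h2a (chr11:58954685-58956830, plus strand) for 1643. The histone stem-loop was found in 46 of the 67 members, among them 9 of the 11 on the polyadenylated-type list. Over the whole annotation it was in 86 of 55450 genes, and in 0.0783% of all 141767 transcripts. In 23 members the annotated message ran at least 100 bases past it. For Hist1h2bc (chr13:23684199-23692908, plus strand) and Hist1h1b (chr13:21779883-21780625, minus strand) the letters of the stem-loop were not in the annotated transcript.

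The stretches before the start sites of 2 H1 genes are shown because these genes behaved differently in cycling cells, as described next. They cover the 150 bases upstream of the start in RefSeq (GRCm38.p6), with matches to the TATA box letters TATAAA, the CCAAT box and the H1 box core (AAACACA) on either strand in capitals. The stretch of Hist1h1b is chr13:21780626-21780775 on the minus strand and that of Hist1h1c is chr13:23738657-23738806 on the plus strand.
Hist1h1b: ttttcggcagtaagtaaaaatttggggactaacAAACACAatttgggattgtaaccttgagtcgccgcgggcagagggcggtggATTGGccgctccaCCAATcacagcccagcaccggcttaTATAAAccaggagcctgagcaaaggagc
Hist1h1c: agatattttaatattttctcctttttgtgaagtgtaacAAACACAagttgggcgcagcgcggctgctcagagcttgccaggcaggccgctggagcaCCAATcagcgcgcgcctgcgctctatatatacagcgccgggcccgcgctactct
RefSeq held a promoter window of 300 bases (250 before the start and 50 after it) for 61 members. The 7-base H1 box core AAACACA was in 5 of 6 H1 windows and in 8.22% of all 27025 gene windows. CCAAT was in 52 of 61 member windows, against 41.1% of all windows, and it was in every H1, H2A, H2B and H3 window examined but in 3 of 12 for H4. TATAAA was in 35 of 61, against 15.7%. The octamer ATTTGCAT was in 7 of 17 H2A windows, 7 of 16 H2B windows and none for H1, H3 or H4, against 1.97% of all windows. On the polyadenylated-type list, 5 of 9 windows held TATAAA and 7 of 9 held CCAAT. These are letter matches in fixed windows and say nothing of which factors bind there.

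Cells were first split by the cell cycle. A cell was counted as cycling when it held a UMI of at least 2 of Mki67, Top2a and Birc5, genes of dividing cells. There were 154 cycling cells in the 2-month heart, 159 in the 18-month heart and 280 in the lymph node pool. Cycling cells were deeper than the rest, with medians of 26313, 18318 and 7969 UMIs against 7931, 4311.5 and 2705.

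In the 2-month heart the members summed to 2083 CPM in cycling cells and 367 CPM in the others, a log2 ratio of 2.50 (2.47 to 2.54). In the 18-month heart the sums were 3155 and 511 CPM, a log2 ratio of 2.63 (2.59 to 2.66). In the lymph node pool they were 5166 and 319 CPM, a log2 ratio of 4.02 (3.98 to 4.05). The members were thus higher in cycling cells in all 3 libraries. After thinning each cell to 1000 UMIs before the markers were read, the log2 ratios were 3.21, 3.21 and 4.32.

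In summed CPM the split was carried by the 56 members outside the polyadenylated-type list in both hearts. Their log2 ratios were 4.03 (1804 against 110 CPM) and 3.90 (2853 against 192 CPM) in the 2-month and 18-month hearts. The polyadenylated-type list summed to 278 against 257 CPM in the 2-month heart, a log2 ratio of 0.12 (0.03 to 0.20), and to 302 against 320 CPM in the 18-month heart, −0.08 (−0.18 to 0.01). In the lymph node pool both sets were higher in cycling cells, at 488 against 93.8 CPM for the polyadenylated-type list, 2.38 (2.29 to 2.47), and 4678 against 225 CPM for the others, 4.38 (4.34 to 4.42). The near equality of the polyadenylated-type list in the hearts depended on the cells kept: with a stricter filter of 8% mitochondrial UMIs and at most 15000 UMIs per cell its log2 ratios were 0.90 and 0.36, and after thinning that of the 18-month heart was 0.55. The cap of 15000 UMIs lies below the median depth of cycling cells in both hearts (26313 and 18318), so that filter left out most of them. The heart and lymph node libraries were read from opposite ends of the message, so their levels were not compared.

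The same split held within smaller sets of cells. In the heart, the named classes with at least 20 cycling cells were dendritic cells and macrophages. The 2-month dendritic cells held 2433 CPM in 50 cycling cells and 337 CPM in 305 others, and the 2-month macrophages 2141 CPM in 37 and 457 CPM in 522. At 18 months the dendritic cells held 2706 CPM in 22 cycling cells and 397 CPM in 275 others, and the macrophages 2387 CPM in 37 and 443 CPM in 629. Within these classes the log2 ratio of the polyadenylated-type list lay between 0.12 and 0.37. Across the 8 lymph node hashtags the members' log2 ratio was above 0 in 8 of 8 and ranged from 3.72 (Hashtag1) to 4.67 (Hashtag7). That of the polyadenylated-type list ranged from 1.87 to 3.18, also above 0 in 8 of 8.

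**Figure D1:**
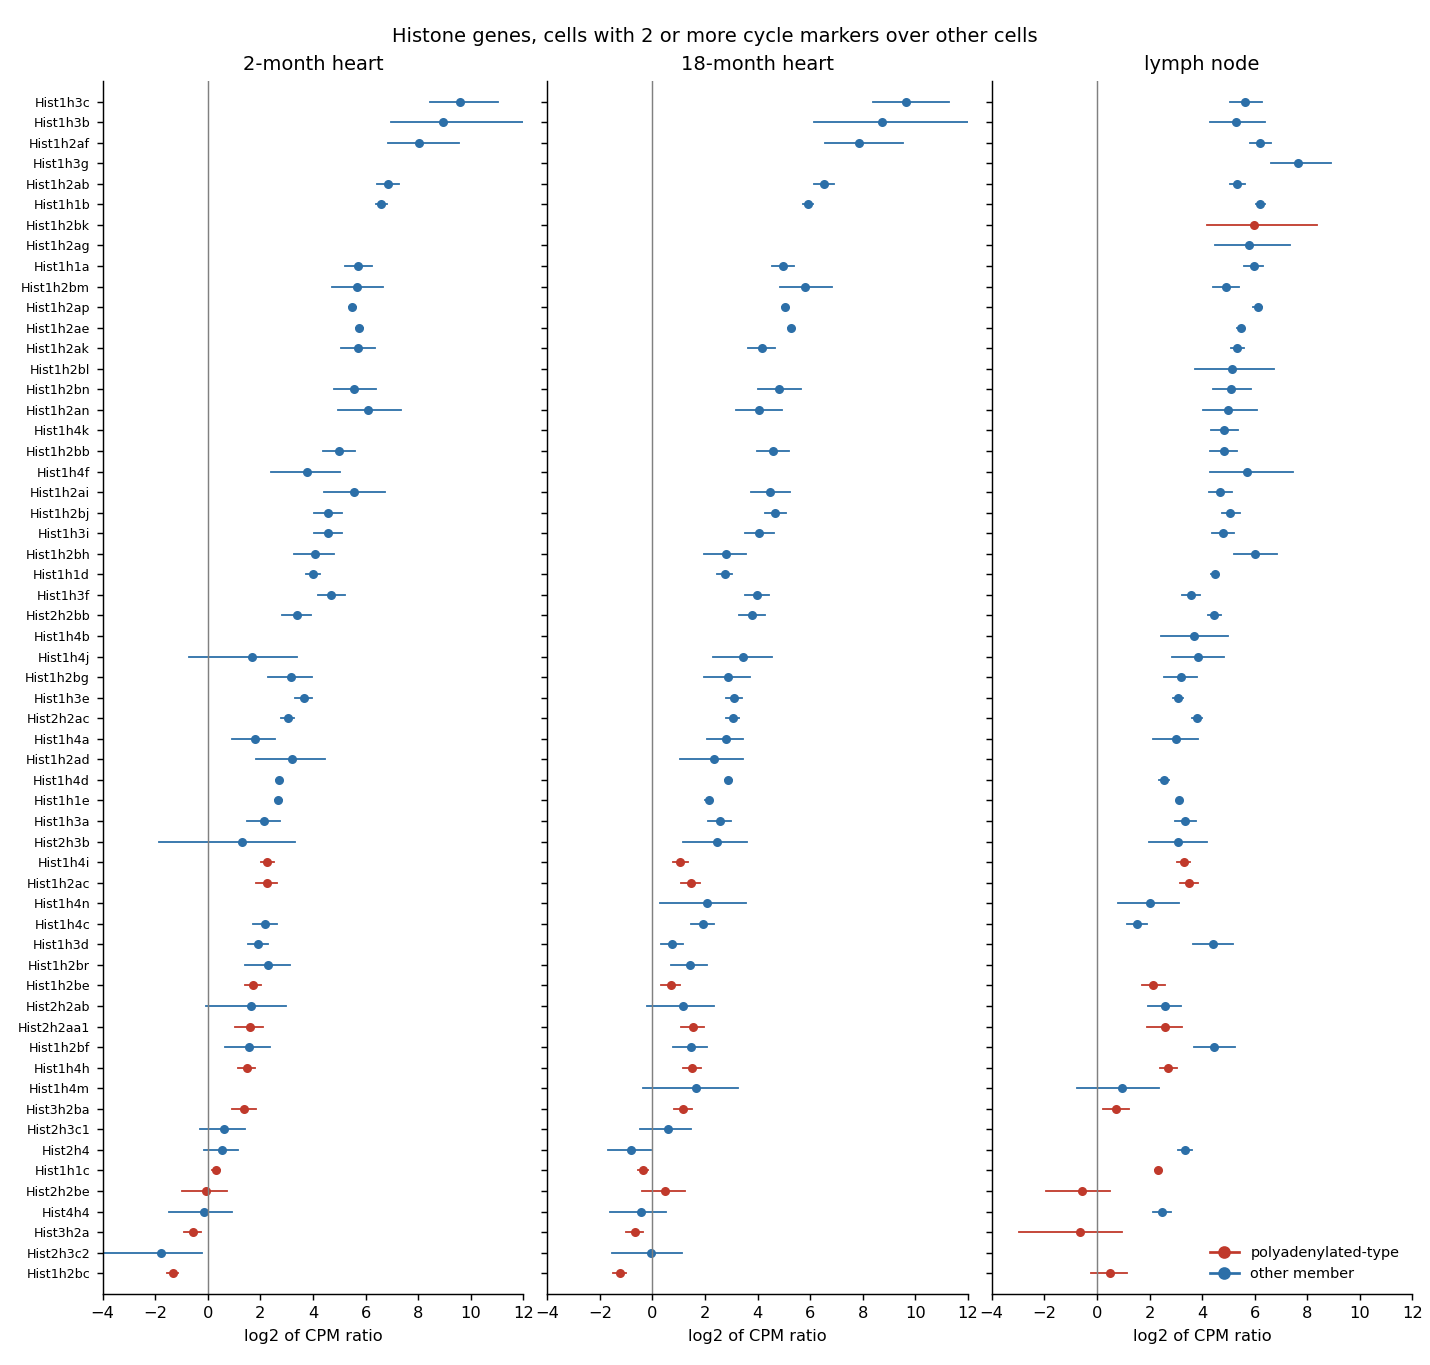
Log2 ratio of CPM in cycling cells over other cells for members with at least 20 UMIs in each library, with exact 95% intervals (clipped at the axis limit where wider) and the polyadenylated-type list in its own colour. Hist1h3c sits at the right in both hearts (9.58 and 9.65), and Hist1h2bc sits left of 0 in both hearts (−1.34 and −1.25).

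Member by member, 50, 51 and 54 members had at least 20 UMIs in the 2-month heart, the 18-month heart and the lymph node pool. In the 2-month heart 39 of 50 were called higher in cycling cells and 2 lower, where 14.2% of all genes tested were called higher and 28.9% lower. In the 18-month heart 41 of 51 were called higher and 3 lower, against 12.4% and 25.0% of all genes. In the lymph node pool 50 of 54 were called higher and 0 lower, against 12.9% and 18.6%. The members' median log2 ratios were 2.87, 2.75 and 4.11, beside −0.30, −0.25 and −0.18 over all genes tested. On the polyadenylated-type list 6 of 10, 6 of 10 and 8 of 11 were called higher, and 1, 2 and 0 lower. Its median log2 ratios were 1.43, 0.88 and 2.34, so its near-equal sums in the hearts did not describe most of its members. Those sums are weighted to members with most UMIs. Hist1h2bc, lower in cycling heart cells, gave 12337 of the list's 26393 UMIs at 2 months and 5905 of 17046 at 18 months.

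The highest heart ratio in both libraries was that of Hist1h3c, which gave few UMIs outside cycling cells. Hist1h3c, an H3 gene, had 189 UMIs in the cycling cells of the 2-month heart and 6 in the other 10741 cells, and 265 against 5 in the 18-month heart. Its log2 ratios were 9.58 (8.44 to 11.05) and 9.65 (8.41 to 11.28), and 5.65 in the lymph node pool. Hist1h3b, another H3 gene, followed at 8.93 and 8.73, then the H2A genes Hist1h2af at 8.04 and 7.86 and Hist1h2ab at 6.84 and 6.53. In the 2-month heart Hist1h2an (6.08), Hist1h2ae (5.76) and Hist1h1a (5.72) also stood among the 8 highest, and in the 18-month heart Hist1h2bm (5.79), Hist1h2ae (5.28) and Hist1h2ap (5.03) did. Hist1h1b completed the 8 in both. Not all of these were near 0 outside cycling cells, where Hist1h2ap had 1234 UMIs (24.6 CPM) and Hist1h2ae 723 UMIs (14.4 CPM) in the 18-month heart. In the lymph node pool the 8 highest were Hist1h3g (7.65), Hist1h1b (6.22), Hist1h2af (6.21), Hist1h2ap (6.11), Hist1h2bh (6.00), Hist1h1a (5.96), Hist1h2bk (5.96) and Hist1h2ag (5.78). Hist1h2bk is on the polyadenylated-type list. Of Hist1h2ap's 50-base stretches 93.1% also occur in another gene, as do at least 50% of those of 32 members, so reads of such genes could be assigned to a near copy or dropped.

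The H1 genes spanned the range within one family. Hist1h1b had 262 against 2.70 CPM in the 2-month heart, 327 against 5.40 in the 18-month heart and 605 against 8.13 in the lymph node pool, log2 ratios of 6.60, 5.92 and 6.22. Hist1h1c, whose promoter stretch is shown above, had 77.8 against 62.8 CPM, 78.9 against 100.2 CPM and 270 against 53.4 CPM. Its log2 ratios were 0.31 (0.14 to 0.47), −0.34 (−0.53 to −0.17) and 2.34 (2.22 to 2.45). Hist1h1e, which overlaps Hist1h2be on the same strand, lay between them at 2.68, 2.14 and 3.14. None of the 50-base stretches of Hist1h1b occurs in another gene, and 8.54% of those of Hist1h1c do.

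A few members were lower in cycling cells over all kept heart cells, a contrast that pools cell classes. Hist1h2bc, an H2B gene of the polyadenylated-type list, had 48.8 against 123 CPM in the 2-month heart and 48.2 against 114 CPM in the 18-month heart. Its log2 ratios were −1.34 (−1.55 to −1.13) and −1.25 (−1.48 to −1.02). Hist3h2a, an H2A gene that overlaps Trim17 on the same strand, was at −0.57 and −0.67, the first of these short of 1.5-fold. The 2-month heart also had Hist2h3c2 at −1.80 (−4.08 to −0.23, from 3 and 254 UMIs), while Hist4h4 (−0.15) and Hist2h2be (−0.05) completed its 5 lowest. The 5 lowest of the 18-month heart were Hist1h2bc, Hist2h4 (−0.82), Hist3h2a, Hist4h4 (−0.45) and Hist1h1c. With the stricter filter, which left out most cycling cells, Hist1h2bc and Hist2h3c2 were at 0.10 and 0.39 in the 2-month heart. Hist2h4 was at 0.16 in the 18-month heart, so the sign of these values depended on that filter. Dendritic cells were 50 of 154 cycling cells but 305 of 10741 others at 2 months. At 18 months they were 22 of 159 and 275 of 7648. Over whole classes Hist1h2bc was lowest in dendritic cells, at 54.1 and 54.4 CPM, against class medians of 110 and 133 CPM. Single members were not split by cycle within classes, and the part of cell mix was not tested. The 5 lowest of the lymph node pool were Hist3h2a (−0.66), Hist2h2be (−0.58), Hist1h2bc (0.50), Hist3h2ba (0.74) and Hist1h4m (0.97), and none was called lower.

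The rest of the polyadenylated-type list lay in between. Hist1h2ac, an H2A gene, was at 2.24, 1.46 and 3.50 in the 2-month heart, the 18-month heart and the lymph node pool. The H4 genes Hist1h4i and Hist1h4h were at 2.27, 1.06 and 3.30 and at 1.48, 1.52 and 2.71. The H2B genes Hist1h2be and Hist3h2ba were at 1.73, 0.70 and 2.14 and at 1.39, 1.17 and 0.74. Hist2h2aa1, an H2A gene with 89.4% of its 50-base stretches in another gene, was at 1.59, 1.53 and 2.58. Hist2h2be was at 0.49 in the 18-month heart. After thinning, Hist1h4i and Hist3h2a were at −0.38 and 0.43 in the 18-month heart, and without unnamed clusters Hist3h2ba was at −0.24 in the lymph node pool, each the opposite direction.

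By histone type, the members outside the polyadenylated-type list differed in the size of the split. H2A genes had summed log2 ratios of 5.29, 4.96 and 5.34, H1 genes 3.95, 3.47 and 4.21, H2B genes 3.89, 3.52 and 4.71, and H3 genes 3.38, 3.17 and 3.86. H4 genes had the smallest at 2.46, 2.49 and 2.77. H2A genes were the highest and H4 genes the lowest type in each of the 3 libraries.

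Members were also grouped by the annotated distance past the stem-loop. The median log2 ratio of members annotated at least 100 bases past the stem-loop was 2.05 (22 members), 1.69 (22) and 3.16 (20) in the 2-month heart, the 18-month heart and the lymph node pool. For those ending within 100 bases it was 4.17 (14), 3.06 (15) and 4.90 (19). For those with no stem-loop in the annotated transcript it was 5.05 (14), 4.06 (14) and 4.84 (15). That class joins short entries, such as Hist1h2ai (393 bases) and Hist1h3i (411 bases), with Hist1h2bc and Hist2h2be of the polyadenylated-type list. Whether the short entries are annotated to their full ends was not tested, so the class need not be messages that lack a stem-loop. The ranges of these sets overlapped: Hist1h2ae, annotated 151 bases past its stem-loop, was at 5.76 in the 2-month heart. These medians describe annotation classes of unequal make-up and were not tested.

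Genes that work with histones were read from lists beside the members. All 18 S phase genes and all 14 G2 and M phase genes tested were higher in the cycling cells of each library (Slbp is on the S phase list), and the split itself was made with genes of this kind. Of the genes that process or regulate histone messages, 7 of 12, 5 of 11 and 7 of 12 were called higher and none lower, by the same rule and background. Slbp, which binds the stem-loop, was at 1.62, 1.76 and 1.86, and Eri1, an exonuclease that trims histone message ends, was at 1.58, 1.51 and 1.02. Npat, a coactivator of replication-dependent histone genes, was at 0.39, 0.63 and 0.40. Of the chaperones, which carry histones to DNA, 8, 8 and 7 of 11 were called higher, led by Asf1b (5.67, 5.29 and 4.41) and Chaf1a (4.25, 4.61 and 4.16), while Atrx was at 0.04, −0.05 and 0.10. Of the replacement-type histone genes, which are made outside replication as well, 8 of 11, 6 of 11 and 6 of 10 were called higher, and 1, 1 and 0 lower. Among these H2afx was at 3.67, 3.61 and 3.37, and H3f3b at 0.66, 0.35 and 0.39.

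Heart cell classes were compared between the 18-month and 2-month libraries next. The question, from the study's design, is what changes in heart cells with age. Over all kept cells the members summed to 435 CPM at 2 months and 675 CPM at 18 months, a log2 ratio of 0.64 (0.62 to 0.66), and 45 of 59 members tested were called higher and 0 lower, where 16.6% of all genes were called higher and 18.6% lower. The mix of cells differed between the libraries, so the classes are given one by one. In clusters without a name the sums were 451 and 934 CPM, with 37 of 47 members called higher and 0 lower, beside 9.83% and 12.0% of genes. Cycling cells there went from 41 of 1364 to 85 of 1327. All 14 G2 and M phase genes and 13 of 18 S phase genes were also called higher. In their other cells the sums were 374 and 534 CPM, and the part of cycling cells was not tested. One unnamed cluster, led by Dntt and T cell receptor genes, held 151 and 288 cells, of which 16 and 67 were cycling. It also carried C1qa, a macrophage gene, at 2577 and 2284 CPM. Without it the log2 ratio over all kept cells was 0.42. Between hashtag subsets of the hearts that ratio ran from −0.17 to 0.89. Cells with no clear hashtag stood at 357 and 474 CPM. The tagged subsets stood higher, at 533 and 713 CPM at 2 months and 986 and 633 CPM at 18 months.

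**Figure D2:**
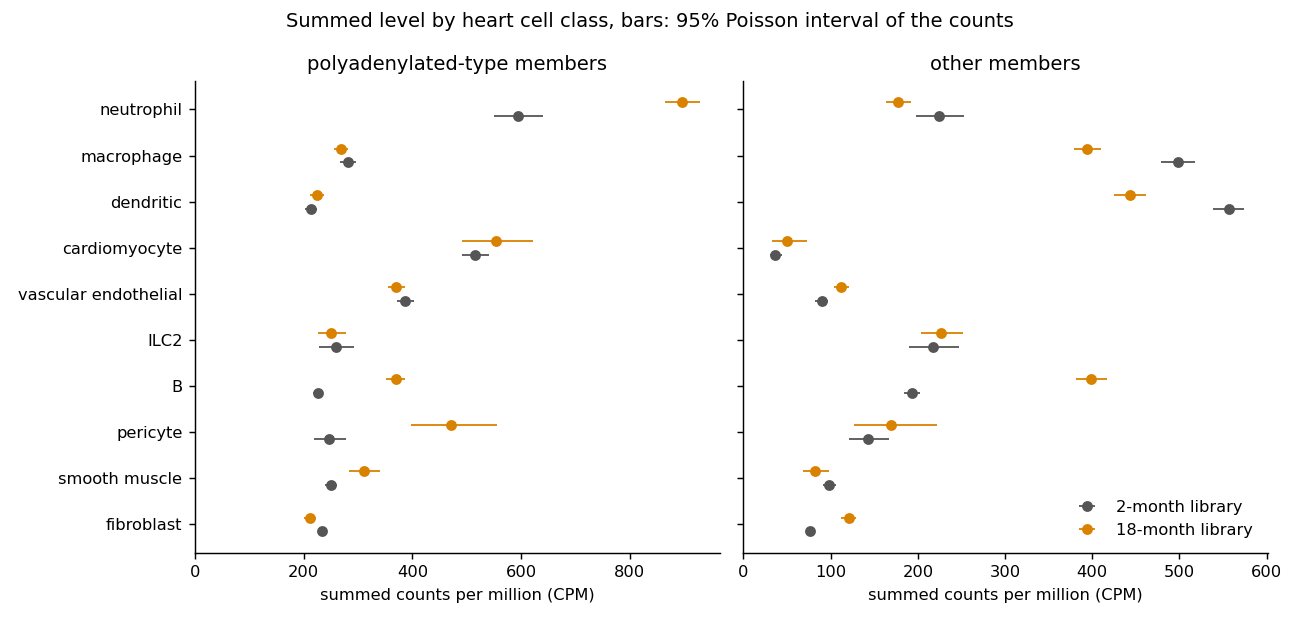
Summed CPM (horizontal axes) of the polyadenylated-type list (left) and of the other members (right) in each heart cell class with at least 50 cells per library, the 2-month library in grey and the 18-month library in orange, with 95% Poisson intervals of the counts. B cells lie further right at 18 months in both panels, from 226 to 369 CPM on the left and from 193 to 399 CPM on the right, and 18-month neutrophils have the highest level on the left at 897 CPM.

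Of the named classes, 10 had at least 50 cells in each library. The members' summed log2 ratio (18 over 2 months) was 0.87 in B cells, 0.72 in pericytes and 0.39 in neutrophils. It was 0.17 in smooth muscle cells, 0.13 in cardiomyocytes, 0.10 in fibroblasts, 0.02 in vascular endothelial cells and 0.00 in type 2 innate lymphoid cells (ILC2). It was −0.21 in dendritic cells and −0.24 in macrophages. The classes thus moved in both directions, and of the 10 only B cells and pericytes passed 1.5-fold.

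In B cells, 19 of 31 members tested were called higher at 18 months and 0 lower, in a class where 18.0% of all 10689 genes tested were called higher and 6.39% lower. The sum went from 419 to 768 CPM, a log2 ratio of 0.87 (0.81 to 0.94). The polyadenylated-type list went from 226 to 369 CPM, 0.71 (0.62 to 0.80), and the others from 193 to 399 CPM, 1.05 (0.95 to 1.14). The members' median was 0.85, beside 0.20 over all genes tested. Relative to trimmed-mean scaling, which places the bulk of genes in this class 0.23 higher on the log2 scale, the sum's log2 ratio was 0.64.

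Within the libraries the B cells were not uniform. By hashtag, the members stood at 406 CPM in the 855 cells of Hashtag09 and 841 CPM in the 59 cells of Hashtag10 at 2 months. At 18 months they stood at 753 CPM in the 407 cells of Hashtag11 and 778 CPM in the 552 cells of Hashtag12. The 2 ages overlapped, since the small subset of the 2-month library lay above both 18-month subsets. The log2 ratio was 0.89 and 0.94 against Hashtag09 and −0.16 and −0.11 against Hashtag10, so the difference rested on Hashtag09. Median depth moved with it: 9421 UMIs per cell in Hashtag09 and 4395, 4361 and 4295.5 in the other 3 subsets. Per cell the members gave 4.20 UMIs in Hashtag09 and 4.10, 3.61 and 3.70 in the others. Thinned to 1000 UMIs the log2 ratio was 0.78 and 5 members were called, with no share of all genes taken at that setting. A list of 7 plasma cell markers moved the other way and stood at 1392 CPM in the class at 2 months and 526.5 CPM at 18 months, with 1055 and 5626 CPM in Hashtag09 and Hashtag10 and 529 and 517 CPM in the 18-month subsets. The part of depth or of plasma cell genes in the B cell difference was not tested.

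**Figure D3:**
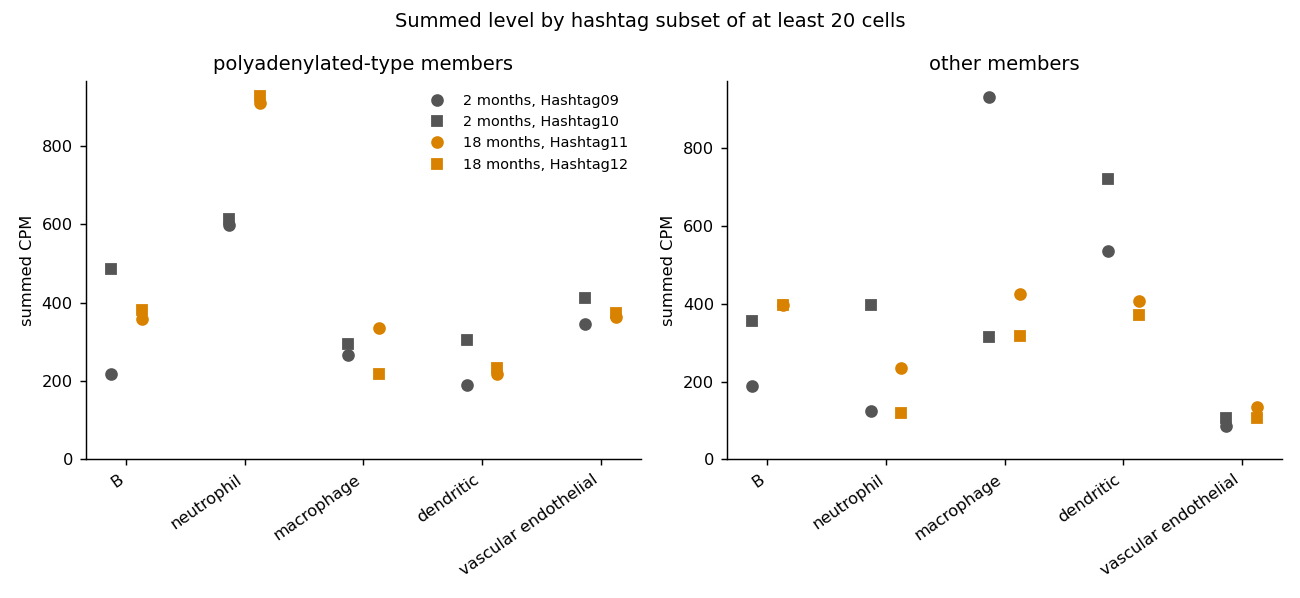
Summed CPM (vertical axes) of the polyadenylated-type list (left) and of the other members (right) in hashtag subsets of at least 20 cells, 2-month subsets in grey and 18-month subsets in orange. In B cells Hashtag09 is the lowest subset in both panels (218 and 188 CPM), and in dendritic cells both 18-month subsets lie below both 2-month subsets on the right (407 and 372 against 534 and 721 CPM) but between them on the left. The share of all genes separated in this way was not computed for dendritic cells.

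The linker histone gene Hist1h1c had the most UMIs among the called members of B cells. It went from 53.8 to 136 CPM, a log2 ratio of 1.33 (1.16 to 1.504), with 49.6 and 188 CPM in Hashtag09 and Hashtag10 and 137 CPM in both 18-month subsets. Hist1h2ap, an H2A gene, went from 25.9 to 72.8 CPM, 1.49 on the log2 scale, with 25.4 and 48.7 CPM in the 2-month subsets and 69.7 and 74.3 CPM in the 18-month subsets. Unlike Hist1h1c, Hist1h2ap did not overlap between the ages. Hist1h1e went from 51.3 to 95.9 CPM (0.90), with 50.7, 79.9, 87.6 and 99.0 CPM over Hashtag09 to Hashtag12. Both 18-month subsets lay above both 2-month subsets for 14 of the 31 members tested, beside 27.6% of all genes tested. Among called members this held for 13 of 19, beside 58.6% of all genes called higher, so most of such genes separated in the same way. Hist1h2bc, the member with the most UMIs in both hearts, was not called in B cells, at 88.6 CPM at both ages (0.00).

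The other called members of B cells were Hist1h3d (2.52 on the log2 scale), Hist1h2bf (2.21), Hist2h4 (2.06), Hist1h2ab (1.76), Hist2h2aa1 (1.70), Hist1h2ac (1.69), Hist4h4 (1.56), Hist1h2ae (1.26), Hist1h2be (1.15), Hist3h2ba (1.10), Hist1h3f (1.02, and −0.10 thinned), Hist1h4d (0.85), Hist1h3e (0.79), Hist1h1d (0.74), Hist2h2ac (0.71) and Hist3h2a (0.62). They covered all 5 histone types and, with Hist1h1c, included 6 of the 10 polyadenylated-type members tested. Hist1h1b, one of the members with the widest cycle split, was at 0.22 and not called. Cycling cells were few in this class, 8 at 2 months and 1 at 18 months, and of 17 S phase genes tested 0 were called higher and 5 lower.

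**Figure D4:**
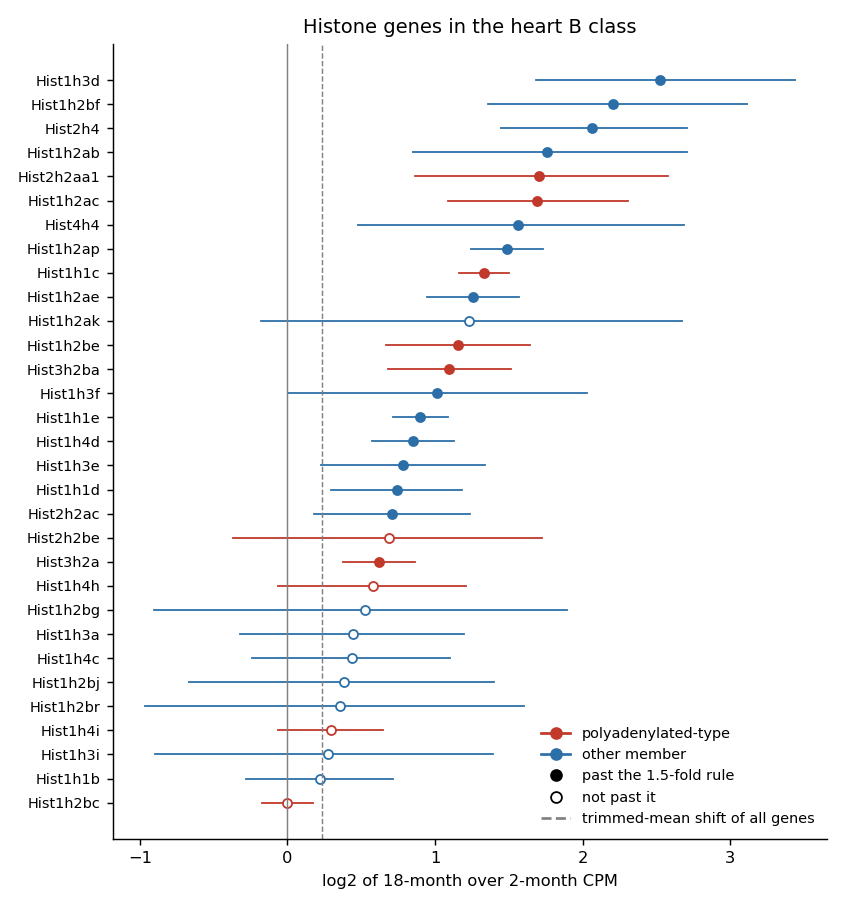
Log2 ratio of 18-month over 2-month CPM in heart B cells (horizontal axis) for each member that passed the low-count filter, with exact 95% intervals; filled points are past the 1.5-fold rule and the dashed line is the trimmed-mean shift over all genes, 0.23. Hist1h3d is at the top with 2.52, Hist1h1c has a narrow interval at 1.33, and Hist1h2bc is at 0.00.

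In neutrophils the class as a whole and its main cluster gave different values. Over the class, the polyadenylated-type list went from 594 to 897 CPM, a log2 ratio of 0.60 (0.48 to 0.72), and the others from 224 to 177 CPM, −0.34 (−0.55 to −0.12). The class joined 2 clusters in unequal shares: the smaller held 39 of 211 cells at 2 months and 14 of 918 at 18 months, with the polyadenylated-type list at 150.1 and 233 CPM. In the main cluster, of 172 and 904 cells with none cycling, that list stood at 932 and 949 CPM, 0.026 (−0.10 to 0.15). The other members stood there at 65.6 and 115 CPM, 0.81 (0.36 to 1.31), the opposite direction to the class. All members together were at 997 and 1064 CPM, 0.094 (−0.027 to 0.22). The class ratio of the polyadenylated-type list was thus not found within the main cluster.

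By hashtag the list stood over the class at 597 and 613 CPM at 2 months and 908 and 928 CPM at 18 months. In the main cluster it stood at 1000.3 and 846 CPM at 2 months and 958 and 964 CPM at 18 months, so there the ages overlapped. The other members of the main cluster stood at 65.0 and 68.0 CPM at 2 months and 116 and 115 CPM at 18 months, which did not overlap. Such separation was common: over the class, 23.3% of all genes tested had both 18-month subsets above both 2-month subsets, and 27.4% had both below. That share was not computed for the main cluster. Of 15 members tested over the class 4 were called higher and 3 lower, where 6.41% of all genes were called higher and 12.4% lower. In the main cluster 2 of 11 were called higher and 0 lower, beside 1.84% and 7.03% of the genes tested there. These were Hist1h1e, from 18.3 to 39.7 CPM (1.12, 0.26 to 2.11), and Hist1h2ap, with 12 and 112 UMIs (0.94, 0.074 to 1.93). The class had medians of 3873 and 3445 UMIs, and its smaller cluster 10524 and 17252.5.

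The calls over the class were not all seen in the main cluster. Hist1h1c went from 223 to 359 CPM in the class, 0.68 (0.49 to 0.88), but stood at 346 and 376 CPM in the main cluster, 0.12 (−0.088 to 0.33). Neutrophils had the highest Hist1h1c level of the 10 classes in both hearts, ahead of cardiomyocytes at 121 and 140.3 CPM, and fibroblasts the lowest at 52.5 and 46.1 CPM. The H4 gene Hist1h4i went from 53.7 to 87.0 CPM (0.70) and the H2B gene Hist1h2be from 27.7 to 45.5 CPM (0.72) in the class, and they were at 0.060 and 0.073 in the main cluster. Hist1h2br was at 5.19 and 16.2 CPM in the class, from 6 and 56 UMIs, and at 0.88 (−0.33 to 2.39) in the main cluster. The 3 called lower, Hist1h2ae (−1.43), Hist1h4d (−1.39) and Hist1h2ab (−1.47), rested on few cells: 5 cells held 93.2% to 100% of their UMIs at 2 months.

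Other genes moved in this class. All 9 G2 and M phase genes tested in neutrophils were called lower at 18 months. The monocyte marker list summed to 2623 and 794 CPM, the fibroblast list to 1783 and 688 CPM and the neutrophil list itself to 255139 and 189053 CPM. Per cell the polyadenylated-type list gave 3.25 and 3.37 UMIs. Trimmed-mean scaling, which places the bulk of genes in neutrophils 0.15 lower, gave the polyadenylated-type list a log2 ratio of 0.75 over the class, and the stricter cell filter 0.34. The part of the marker lists in the difference was not tested.

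In macrophages the members went from 780 to 662 CPM, −0.24 (−0.30 to −0.17), with 0 of 38 called higher and 5 lower, where 4.31% of genes were called higher and 5.27% lower. The 5 were Hist1h3i (−1.24), Hist1h3c (−1.13), Hist1h2ae (−0.62), Hist1h1d (−0.60) and Hist1h3d (−0.59), none of them on the polyadenylated-type list. The direction of 3 of these turned under other settings. Hist1h2ae was at 0.0051 with clusters drawn at the lower resolution, 0.12 without cycling cells and 0.53 thinned, Hist1h1d at 0.26 at the lower resolution and Hist1h3d at 0.18 in the larger of the class's 2 clusters. The hashtag subsets overlapped, at 1197 and 608 CPM at 2 months and 760 and 533 CPM at 18 months. Without cycling cells the log2 ratio was −0.046, and with clusters drawn at the lower resolution it was 0.061. The polyadenylated-type list was at 282 and 268 CPM.

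In dendritic cells the members stood at 723 and 1026 CPM in the 2-month subsets and 625.4 and 605 CPM in the 18-month subsets, lower in all 4 pairs (−0.76 to −0.21). Cells with no clear hashtag went the other way, at 385 CPM in 14 cells and 1278 CPM in 15. The share of all genes whose subsets separated between the ages was not computed for this class. Of 38 members tested, Hist1h3d (0.59) and Hist1h2ac (0.89) were called higher and Hist1h1b (−0.93) and Hist1h1e (−0.60) lower, beside 5.26% and 8.09% of all genes. Cycling cells went from 50 of 355 cells to 22 of 297, and without them the members' log2 ratio was 0.24, the opposite direction, as it was with the stricter filter (0.094). The polyadenylated-type list was at 214 and 224 CPM, and the lower sum lay in the other members, at 556 and 443 CPM.

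In classes of the heart wall some calls rested on a handful of cells. In vascular endothelial cells 3 of 22 members were called higher and 1 lower, beside 4.83% and 3.75% of all genes. Hist1h4h was at 0.73 and Hist2h2be at −1.09, and both kept their direction with clusters drawn at the lower resolution. Hist1h2ap (1.31, from 16 and 34 UMIs) and Hist1h2ae (1.27, from 15 and 31 UMIs) were at −0.98 and −1.18 at that resolution, so their direction depended on which cells were put in the class. In fibroblasts 4 of 25 were called higher and 0 lower, beside 6.77% and 2.92%. Hist1h2ap went from 2.72 to 21.3 CPM in fibroblasts, but 5 cells held 92.8% of its 18-month UMIs, and without the 5 cells of each library with most member UMIs it was at −0.21. Hist1h1b (2.60) had 96.6% of its 18-month UMIs in 5 cells. In the largest fibroblast cluster Hist1h2ap and Hist1h1b were at −0.28 and −1.14, and with the stricter filter at −0.25 and −1.43. Hist2h2ac (0.59, and −0.35 thinned) and Hist1h4c (0.90) completed the calls over the class. The fibroblast cluster led by Wif1 (534 and 81 cells) stood apart. Its members outside the polyadenylated-type list went from 74.6 to 299 CPM, 2.00 (1.80 to 2.21), against 0.056 and 0.18 in the larger clusters. There 6 of 16 members were called higher and 1 lower, beside 4.92% and 2.90% of genes. Its polyadenylated-type list was at −0.26, and how many cells carried the difference was not tested.

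In pericytes 3 of 5 members were called higher, beside 3.59% of all genes (3.15% lower): Hist1h2bc (1.12), Hist1h1c (0.95) and Hist1h1e (0.91). Without the 5 cells with most member UMIs in each library the class sum was at −0.11, with Hist1h2bc at −0.13 and Hist1h1c at −0.50. That step removed 5 of 164 cells at 2 months and 5 of 52 at 18 months, all chosen by member UMIs. It weighed unevenly on the 2 ages, so it cannot show what the pooled difference rested on. In smooth muscle cells 1 of 18 was called higher, Hist1h1c from 58.4 to 91.2 CPM (0.64), and 1 lower, beside 4.82% and 2.36%. The one called lower was Hist2h3c2 (−2.86, −8.20 to −0.29), from 39 and 1 UMIs. Thinned to 1000 UMIs both were in the opposite direction, Hist1h1c at −0.17 (−1.57 to 0.99) and Hist2h3c2 at 2.41 (−3.88 to 8.71).

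Type 2 innate lymphoid cells and cardiomyocytes gave few calls. In ILC2, Hist1h4h (2.76, 0.72 to 5.90, from 2 and 20 UMIs) and Hist1h4d (0.91) were called higher and Hist1h1c lower, from 113 to 56.1 CPM (−1.02, −1.44 to −0.60), of 16 tested and beside 2.95% and 4.87% of genes. In cardiomyocytes 1 of 8 was called, Hist1h4i, lower with an interval of −5.08 to −0.071 on the log2 scale (50 and 2 UMIs), beside 4.39% higher and 3.24% lower. There the polyadenylated-type list made up 93.4% and 91.7% of member UMIs, and no cell counted as cycling.

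Single members differed widely in level among the 10 classes. Hist1h2bc ranged from 54.1 CPM in dendritic cells to 271 CPM in cardiomyocytes at 2 months, and from 54.4 CPM in dendritic cells to 351 CPM in neutrophils at 18 months. Hist1h4h was highest in cardiomyocytes in both hearts, at 48.9 and 53.8 CPM, against class medians of 7.54 and 11.3 CPM. Hist3h2a was highest in vascular endothelial cells at 2 months (66.1 CPM) and in macrophages at 18 months (54.4 CPM). Hist1h2be, Hist1h4i and Hist2h2aa1 had their highest levels in neutrophils in both hearts. Hist2h2be was highest in smooth muscle cells in both (12.3 and 8.79 CPM). Hist1h2bk did not exceed 0.668 CPM in any class. Levels were not compared between genes, since reads at message ends depend on each gene's annotated end, and where a member is said to have the most UMIs this says only how much data it gave.

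The members of the lymph node pool were read by T cell state. Their summed level was 397 CPM (379 to 417) in regulatory T cells, 367 CPM (337 to 399) in memory CD4 T cells and 343 CPM (320.4 to 367) in follicular helper T cells. A cluster of 1457 cells led by Gzmk, Ier3 and Lmo1 stood at 350.1 CPM (333 to 368). It scored highest on the list for CD4 T cells with Gzmk (4 of 5 markers), but held 6 markers of the CD8 list, and its matching cluster at the lower resolution took the CD8 name. Of its cells 16.7% had a UMI of Cd4 and 54.0% one of Cd8b1, so it is called the Gzmk-led cluster with no lineage. Memory CD8 T cells stood at 265 CPM (251 to 279), interferon-response T cells at 264 CPM (237 to 294) and naive-like CD8 T cells at 236 CPM (224 to 248.5).

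The ends of this order rested on which clusters a state joined, and depth moved with it. Regulatory T cells joined a cluster of 916 cells at 349.6 CPM (330 to 371), with a median of 2914.5 UMIs, and one of 945 cells at 535 CPM (493.1 to 579), with a median of 915 UMIs. The first of these lay below memory CD4 T cells, with overlapping intervals. Naive-like CD8 T cells joined a cluster of 722 cells at 208 CPM (196 to 221), with a median of 6913 UMIs, and one of 744 cells at 348 CPM (316 to 383), with a median of 1353.5 UMIs. The second of these lay above follicular helper T cells, also with overlapping intervals. In both states the shallower cluster had the higher level, and the part of depth was not tested. Without cycling cells the levels were 397 CPM in regulatory, 236 CPM in naive-like CD8 and 225 CPM in memory CD8 T cells, so the lowest state changed. The polyadenylated-type list was at 109 CPM in regulatory T cells (103 and 127 CPM in the 2 clusters), 80.2 CPM in naive-like CD8 T cells (76.3 and 95.8 CPM) and 77.4 CPM in memory CD8 T cells.

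Most cycling cells carried no state name. Of 280 cycling cells, 222 (79.3%) lay in clusters without a name, and 179 in one cluster of 220 cells led by Birc5, Ube2c and Pclaf. That cluster was left unnamed because it was led by cycle genes, so the naming rule kept its cells out of every state. That cluster held the members at 6056 CPM and the polyadenylated-type list at 549.96 CPM. No named T cell state held 20 cycling cells. Over the whole pool the 8 members that gave most UMIs were Hist1h1e (4134), Hist1h1c (2781), Hist1h2ae (2518), Hist1h2ap (2284), Hist1h1b (2257), Hist1h1d (1959), Hist1h4d (1083) and Hist2h2ac (849). Hist1h2bc gave 184.

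Cells were then grouped by the size of their T cell clonotype, the set of cells sharing a receptor. The study asked whether clones expand with age. The members stood at 596 CPM (587 to 606) in 5105 cells whose clonotype held 1 cell, 1099 CPM (1067 to 1132) in 1418 cells of clonotypes of 2 to 4 cells and 1746 CPM (1696 to 1798) in 692 cells of clonotypes of 5 or more. The log2 ratio of the largest over the single clonotypes was 1.55 (1.501 to 1.60), with 0.95 (0.82 to 1.09) for the polyadenylated-type list and 1.66 (1.60 to 1.71) for the others. Cycling cells were 110, 51 and 58 of these cells. Without them the levels were 272, 389 and 430 CPM, and the log2 ratio was 0.66 (0.56 to 0.76).

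**Figure D5:**
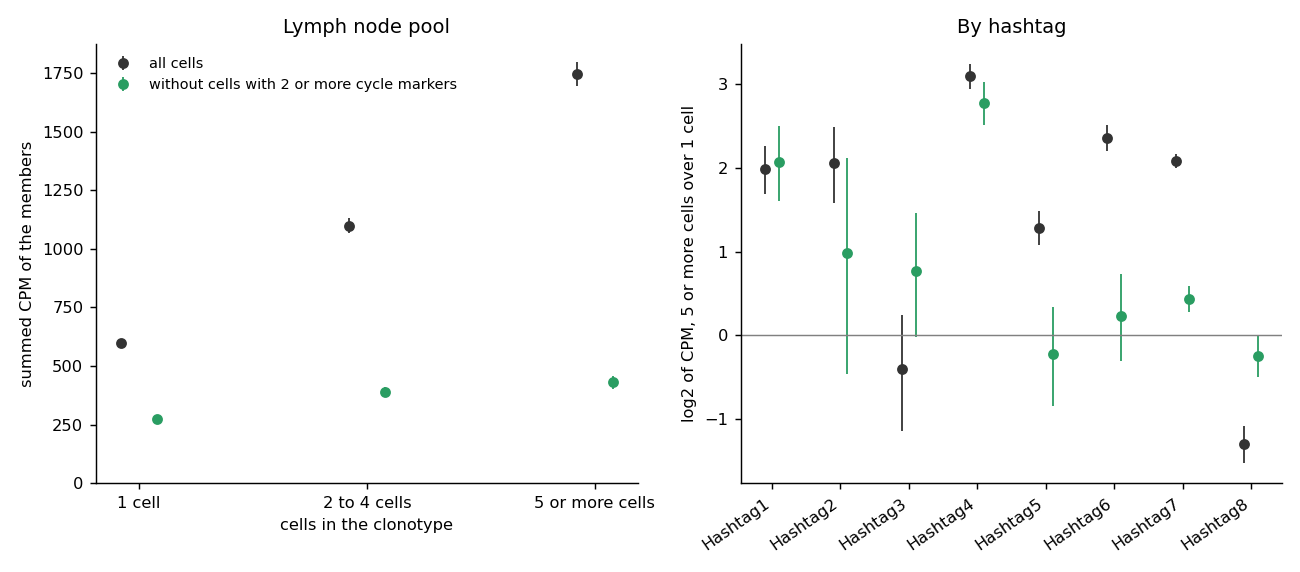
Left, summed member CPM of lymph node cells by clonotype size, with all cells (black) and without cycling cells (green), with 95% Poisson intervals; right, the log2 ratio of clonotypes of 5 or more cells over single cells in each of the 8 hashtags, with exact 95% intervals. The pool goes from 596 to 1746 CPM with all cells and from 272 to 430 CPM without cycling cells.

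The hashtags did not move alike. The members were higher in clonotypes of 5 or more cells in 6 of 8 hashtags, with log2 ratios of 3.09 in Hashtag4, 2.35 in Hashtag6, 2.08 in Hashtag7, 2.06 in Hashtag2, 1.99 in Hashtag1 and 1.28 in Hashtag5. They were lower in Hashtag8 at −1.30 (−1.53 to −1.09) and at −0.40 in Hashtag3. Without cycling cells the ratio was above 0 in 6 of 8, from −0.24 to 2.77. The large clonotypes of a hashtag were few in places, with 7 such cells left in Hashtag2. Hashtag7 held 380 of the 692 cells in large clonotypes and 32 of their 58 cycling cells. Leaving it out gave 1.04, and leaving out Hashtag8 gave 1.96.

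Within single states the difference was small or uncertain. It was 0.24 (0.05 to 0.42) in the Gzmk-led cluster, 0.33 (−0.02 to 0.65) in follicular helper T cells, −0.22 (−0.59 to 0.12) in memory CD8 T cells, −0.36 (−0.87 to 0.11) in memory CD4 T cells and −0.39 (−0.93 to 0.11) in regulatory T cells. In clusters without a name it was 2.33 (2.27 to 2.38), and over all other clusters together 0.50. The clusters without a name held 51 of the 58 cycling cells of large clonotypes, so the pooled ratio lay mostly with them. The one left unnamed because it was led by cycle genes held 49 of those 58. The ratios within states therefore leave out most cycling cells by the naming rule.

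By member, 31 of 51 tested were called higher in clonotypes of 5 or more cells and 0 lower, where 6.71% of all genes tested were called higher and 5.27% lower. Hist1h1b went from 36.5 CPM in single clonotypes to 228 CPM, 2.64 (2.49 to 2.80), and Hist1h1d from 31.2 to 210 CPM, 2.76 (2.59 to 2.92). Hist1h4k (3.22) and Hist1h2af (3.14) had the highest ratios. Hist1h1e went from 88.7 to 232 CPM (1.39) and Hist1h1c from 61.2 to 131 CPM (1.09). On the polyadenylated-type list 5 of 10 were called higher: Hist1h2ac (1.20), Hist1h1c, Hist3h2ba (1.01), Hist1h4i (0.91) and Hist1h4h (0.88). Hist1h2bc was at −0.08 and Hist2h2be at −0.59, not called. Of the cell cycle lists, 12 of 14 G2 and M phase genes and 2 of 18 S phase genes were called higher in the same cells.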

How the data were processed

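The values are UMI counts per gene and cell, per the file headers, deposited by the authors as filtered matrices. Cell Ranger 3.1.0 and mm10 (GRCm38) are named in the submitters' processing notes; further settings are not given in the sources used here. The cell filter asked for 200 genes or more and a mitochondrial share of UMIs of no more than 15% (heart) or 10% (lymph node). Scrublet, as run in Scanpy with an expected rate of 8%, marked 493 and 228 heart doublets, which were left out. It marked 0 in the lymph node pool and so did not work there, where cells needed 1 hashtag with at least 20 UMIs and 3 times the next. Clustering used 2000 variable genes without the members and cell cycle genes, 30 components, 15 exact neighbours from rounded coordinates and Leiden resolution 1 (Python 3.11.15, Scanpy 1.11.5, igraph 0.11.9, scikit-learn 1.9.0, SciPy 1.17.1, numpy 2.4.6, pandas 2.3.3). Clusters were named from marker lists. A cluster stayed unnamed with fewer than 3 markers, under 20 cells, or as many or more markers of another class in its top 10 genes. It also stayed unnamed if led by cycle genes, if a heart cluster held markers of 2 lineages, or if shallow with no marker in the top 10. The limits on ties and on cells were set after seeing the data. Counts were summed per class and library; levels have exact Poisson intervals and ratios exact binomial ones. The clonotype size is the number of barcodes in the deposited clonotype table.

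The members and lists were chosen with earlier results of these data known. Named members are the polyadenylated-type list, the 8 with most UMIs per library, those called in a heart class with at least 50 cells per library, and the 8 highest and 5 lowest cycle ratios. The call rule was tested on simulated data. The number of animals per library is not given in the labels, and intervals cover counting error only. Alternatives covered cell filters, doublets, scaling, thinning, cycle definitions, clustering resolution, hashtags and clonotype size. The lymph node hashtag library was read from the gene matrix; all per-sample columns were mapped (0 left).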

Additional observations from a re-analysis of the deposited data

Results flagged for a closer look

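In all, 4 values of the lymph node pool stood far from the other 7 hashtags, all in Hashtag7. Its polyadenylated-type list stood at 163.72 CPM over all its cells, with the nearest hashtag at 135.958 CPM. In its cycling cells the members stood at 9401.34 CPM (nearest 5146.09), the polyadenylated-type list at 977.343 CPM (nearest 543.354) and the other members at 8424 CPM (nearest 4671.45). Hashtag7 held 64 cycling cells with a median of 4146.5 UMIs, of which 32 were in clonotypes of 5 or more cells. Its largest clonotype among cycling cells had 20 cells. The part of these in the values was not tested. Chance alone flags about 1 in 20 sets of this kind, and 15 sets were examined, several of which share cells.

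Neutrophils and dendritic cells differed in direction between the hearts. The members' log2 ratio (18 over 2 months) was 0.393415 in neutrophils and −0.20612 in dendritic cells, and each held its direction in all 4 pairs of hashtag subsets. In neutrophils 23.3% of all genes tested were likewise higher in every pair, and in dendritic cells such a share was not computed. Without cycling cells the ratios were 0.56 and 0.24. Neutrophils joined 2 clusters, the smaller with 39 of 211 cells at 2 months and 14 of 918 at 18 months, and in the main one alone the ratio was 0.094 (−0.027 to 0.22). The difference between the classes was not tested.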

How the results depend on the processing

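The values here are log2 ratios unless called counts or levels. Of the summed B cell ratios (18 over 2 months), that of all members was 0.79 with the stricter cell filter, 0.64 with trimmed-mean scaling, 0.78 thinned to 1000 UMIs and 1.04 without the member with most UMIs, and −0.16 to 0.94 over the hashtag pairs. That of the polyadenylated-type list was 0.47 with trimmed-mean scaling, and −0.45 to 0.81 over the pairs. The count of 19 called members, all higher, was 5 thinned. In both pairs against Hashtag10 it was 1, called lower, of 17 (Hashtag11) and 21 (Hashtag12) members tested, with 0 higher. No share of all genes called was taken under these settings.

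In neutrophils all members were at 0.54 with trimmed-mean scaling, 0.67 without the 5 cells of each library with most member UMIs, 0.56 without cycling cells, 0.27 without the top member, 0.094 in the largest cluster alone and 0.051 to 0.66 over pairs. The polyadenylated-type list was at 0.34 with the stricter filter, 0.75 with trimmed-mean scaling, 0.41 thinned and 0.026 in the largest cluster. The count of 7 was 3, 1, 4 and 2 with the stricter filter, thinned, in the lowest pair and in the largest cluster. In macrophages the members were at −0.046 with the stricter filter, −0.34 without the 5 cells, −0.046 without cycling cells, 0.061 at resolution 0.5, 0.20 thinned and −1.17 to 0.32 over pairs (−0.31 in the largest cluster), with counts (5 as reported) of 3, 10, 3, 3, 0 and up to 16, and 3 with trimmed-mean scaling. Counts here join both directions. The 16, of 26 tested, were all lower (Hashtag12 over Hashtag09), while Hashtag11 over Hashtag10 had 6 higher and 1 lower of 26. Except in the largest neutrophil cluster, no share of all genes called was taken under these settings, and the number of members tested changed with them.

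The cycle ratio of the members in the 2-month heart, the 18-month heart and the lymph node was 1.39, 1.72 and 3.27 with 1 or more markers, 1.56, 1.78 and 3.16 with 2 or more of Mcm5, Rrm2 and Pcna, 3.21, 3.21 and 4.32 thinned, 2.27, 2.43 and 3.87 without the 5 cells with most member UMIs, 2.56, 2.29 and 3.04 without unnamed clusters, and 2.86, 2.68 and 4.42 with the stricter filter (on UMIs in the lymph node too). In the hearts it was 2.89 and 2.99 with all 3 markers, 2.23 to 2.85 and 2.43 to 2.77 within named classes, and 2.46 to 2.80 and 2.07 to 2.90 within hashtags. It was 2.47 in the 2-month heart with doublets kept and 3.98 in the lymph node with cells of no clear hashtag, where hashtags ran from 3.72 to 4.67. Leaving out 1 hashtag gave 2.34 to 2.51, 2.09 to 2.82 and 3.89 to 4.06.

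The cycle ratio of the polyadenylated-type list in the 2-month heart was −0.13 with 1 or more markers, −0.30 with the S phase genes, 0.013 without the 5 cells, up to 0.37 within classes, up to 0.20 within hashtags and 0.90 with the stricter filter. In the 18-month heart it was −0.42 with the S phase genes, 0.55 thinned, 0.12 to 0.28 within classes, −0.46 in the lowest hashtag, −0.22 without unnamed clusters and 0.36 with the stricter filter. In the lymph node it was 2.50 with all 3 markers, 1.72 with 1 or more, 1.66 with the S phase genes, 2.94 thinned, 2.20 without the 5 cells, 1.87 to 3.18 within hashtags, 1.83 without unnamed clusters and 2.84 with the stricter filter. Leaving out 1 hashtag gave 0.055 to 0.29, −0.20 to 0.049 and 2.20 to 2.47.

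Members of regulatory T cells stood at 450 CPM thinned and 364 CPM at resolution 0.5, and those of naive-like CD8 T cells at 261 CPM thinned. Leaving out 1 hashtag gave 390 to 407 CPM and 228 to 241 CPM. The clonotype ratio was 0.66 without cycling cells, 1.87 thinned, 1.64 with cells of no clear hashtag, 1.38 with size counted from kept cells, 1.18 with 2 or more cells as the large class, 1.63 in CD4 and 0.95 in CD8 cells, 1.49 with a hashtag at 5 times the next, 2.29 with the stricter filter and 0.50 without unnamed clusters. Leaving out 1 hashtag gave 1.04 to 1.96.

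Single results changed sign. With the stricter filter Hist1h1b and Hist1h2ap in fibroblasts were at −1.43 and −0.25, and the latter at −0.21 without the 5 cells and −0.33 without cycling cells. At resolution 0.5 Hist1h2ap and Hist1h2ae in vascular endothelial cells were at −0.98 and −1.18, and Hist1h1d and Hist1h2ae in macrophages at 0.26 and 0.0051. In the largest cluster of the class alone, Hist1h1b and Hist1h2ap in fibroblasts were at −1.14 and −0.28 and Hist1h3d in macrophages at 0.18. Hist1h2ae in macrophages was at 0.12 without cycling cells and 0.53 thinned. Without the 5 cells, pericyte sums were at −0.11 (all members) and −0.094 (polyadenylated-type list), with Hist1h2bc at −0.13 and Hist1h1c at −0.50. Thinned, Hist1h3f in B cells was at −0.10, Hist2h2ac in fibroblasts at −0.35, Hist2h3c2 and Hist1h1c in smooth muscle cells at 2.41 and −0.17, and in the 18-month heart's cycle ratios Hist1h4i at −0.38 and Hist3h2a at 0.43. With the stricter filter the cycle ratios of Hist1h2bc and Hist2h3c2 in the 2-month heart were 0.10 and 0.39 and that of Hist2h4 in the 18-month heart 0.16. Hist3h2ba in the lymph node was at −0.24 without unnamed clusters. Over all kept heart cells the lowest hashtag pair was at −0.17. The cause of these changes was not tested.

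No paired analysis was possible because each age is 1 heart library. The levels of T cell states with doublets kept were not run, since cells with no clear hashtag have no cluster. The alternatives on the stricter cycle filter, unnamed clusters, the largest cluster, shared barcodes, the top member and hashtag strictness were chosen after seeing the data. Depth limits the calls of low members: 50 of 67 in the 2-month heart reached 20 UMIs.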

Other observations

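The B cell clusters of the lymph node pool held the members at 538 CPM (507 to 570) and the dendritic clusters at 657 CPM (620 to 696), both above the named T cell states. Without cycling cells these were 434 and 380 CPM. A cluster without a name that was led by immunoglobulin genes, Jchain and Mzb1 held 859 CPM in 243 cells, 34 of them cycling.

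The lymph node hashtags, whose ages are not given in the sources used here, held the members at 666, 679, 623, 601, 873, 695, 949 and 636 CPM from Hashtag1 to Hashtag8. Cells without a receptor stood at 589 CPM.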
